A study of Mus musculus with 6 samples.

Results

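The Rab GTPases are the largest family of small GTPases that direct membrane traffic, and their RNA was examined here in dopamine D2 receptor-expressing neurons of the mouse medial prefrontal cortex (mPFC) with and without Gsk3b, the gene of glycogen synthase kinase 3β. Members were set by a rule on names, which was chosen with earlier results of these data known. It took every row whose gene symbol is Rab followed by a number and, at most, a letter and a digit. This gave 226 of the 115220 transcripts in the expression table, which belong to 59 of its 47729 genes. FPKM (fragments per kilobase of transcript, scaled to the depth of the library) was described for each transcript and, summed by gene identifier, as a gene total.

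Each Rab protein cycles between a GDP-bound form held in the cytosol and a GTP-bound form anchored to a membrane by prenyl groups. Guanine nucleotide exchange factors load GTP and so place a Rab on its compartment, GTPase-activating proteins switch it off, GDP dissociation inhibitors extract it, and effectors such as tethers and motor adaptors bind the active form. In neurons, Rab3 and Rab27 proteins act on synaptic and secretory vesicles, Rab5, Rab4 and Rab11 proteins on endocytosis and recycling of receptors, Rab7 on late endosomes and lysosomes, and Rab1, Rab2 and Rab6 on traffic through the endoplasmic reticulum and Golgi.

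All libraries came from D2Cre/LSL-Flag-Cas9/RiboTag mice on a C57BL/6 background, in which a Cre recombinase driven by the D2 receptor gene on a bacterial artificial chromosome switches on Flag-tagged Cas9 and a hemagglutinin-tagged Rpl22, a protein of the large ribosomal subunit. Adult males received an adeno-associated virus (AAV) into the mPFC. In Ctrl it carried GFP alone (AAV GFP), and in Gsk3sKO in mPFC D2, called Gsk3sKO below, it carried GFP with a guide RNA against Gsk3b (AAV Gsk3 sgRNA/GFP). Cas9 and the ribosome tag were therefore present in both groups, and the control virus held no guide RNA. Ribosome-associated RNA was pulled down through the tag 3 weeks after injection and sequenced, giving 3 libraries per group. The sources used here do not state whether a library is 1 mouse or a pool, so every p-value here reflects variation among libraries that could be technical in part.

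The total of Gsk3b was 35.6, 53.8 and 56.5 FPKM in Ctrl and 36.9, 37.0 and 33.6 in Gsk3sKO, with groups that overlapped through Ctrl replicate 1 (log2 fold change -0.40, SE 0.19, 95% interval -0.84 to 0.03). Edited RNA that is still made is counted as Gsk3b, so RNA is only a partial check of a knockout made by small mutations. Spacing of the lowest values put the depth near 23.5 to 45.2 M reads per library, although only 13.6 to 20.7% of those values were whole multiples of 1 read to within 0.01. Drd2, which defines the targeted cells, was 1.58, 6.02 and 14.1 FPKM over the Ctrl libraries, against 8.32, 5.96 and 7.28 over Gsk3sKO. Ctrl replicate 1 thus had the lowest Drd2, and Adora2a, another D2 cell gene, was listed at 0 there. With Penk and Gpr6, these D2 cell genes summed to 98.5, 120 and 318 FPKM in Ctrl and 187, 146 and 293 in Gsk3sKO, most of it Penk. Their median log2 fold change was 0.41, and 0 of the 4 had an unadjusted limma p under 0.05, against 6.56% of all genes. Markers of other cells were present in every library: the summed levels of 6 oligodendrocyte genes were 118 to 183 FPKM in Ctrl and 128 to 165 in Gsk3sKO, with 3 of the 6 lower in Gsk3sKO at an unadjusted limma p under 0.05 (Cnp, Mag and Mog), against 5.2% of all genes. Those of 6 microglia genes were 14.2 to 25.3 and 12.4 to 15.4, with C1qa lower, and Tmem119 below a mean of 1. The sums over 5 excitatory neuron genes (881 to 999 and 840 to 1046, Tbr1 lower), 6 inhibitory neuron genes (990 to 1318 and 935 to 1029), 6 astrocyte genes (56.1 to 65.3 and 48.2 to 68.2) and 6 endothelial genes (15.9 to 64.1 and 22.8 to 61.0) overlapped between groups. The part of any of these in the results below was not tested.

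The sequences that matter most for what follows are those by which transcripts of 1 Rab gene differ in their protein-coding part. Rab6a, a Golgi Rab, has a pair of mutually exclusive coding exons, whose estimated use varied between libraries. They lie side by side on the plus strand in GRCm38, at chr7:100629838-100629943 for transcript ENSMUST00000032946 and at chr7:100629666-100629771 for ENSMUST00000098252, and both are 106 bases long. Capitals mark the 30 positions at which they differ.
Rab6a ENSMUST00000032946 exon 4: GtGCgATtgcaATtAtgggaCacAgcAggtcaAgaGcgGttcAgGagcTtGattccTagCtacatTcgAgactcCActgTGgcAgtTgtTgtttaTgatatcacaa
Rab6a ENSMUST00000098252 exon 4: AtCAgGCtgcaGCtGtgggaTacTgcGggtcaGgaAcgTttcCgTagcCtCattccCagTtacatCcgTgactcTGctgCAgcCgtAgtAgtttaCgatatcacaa

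Rab26, a Rab of synaptic and secretory vesicles, has a pair of first exons with different start codons on the minus strand of chromosome 17. Transcript ENSMUST00000176533 starts its coding sequence with 113 bases at chr17:24534021-24534133, and ENSMUST00000035797 with 8 bases at chr17:24533576-24533583, after which both share 772 coding bases. Capitals mark the start codon.
Rab26 ENSMUST00000176533: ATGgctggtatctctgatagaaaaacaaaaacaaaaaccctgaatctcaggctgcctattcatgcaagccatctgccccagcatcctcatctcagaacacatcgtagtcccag
Rab26 ENSMUST00000035797: ATGtccag

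Of the 59 Rab genes, 55 were above 0 in at least 1 library. Of the totals, 4 averaged at least 100 FPKM, 32 at least 10 FPKM, and 13 lay between 1 and 10. The 8 most abundant members held 61.6% of the summed Rab FPKM, between 59.6% and 64.0% in any library. Rab3a led with 18.4% of the family, followed by Rab6a, Rab6b, Rab2a, Rab14, Rab15, Rab12 and Rab3c. The family's sum was 1607, 1649 and 1756 FPKM in Ctrl and 1743, 1708 and 1674 in Gsk3sKO, or 1671 ± 76.7 and 1708 ± 34.2 (SD, n = 3 each), a ratio of 1.02. The groups overlapped, and the order of the genes was much the same in every library: over the 45 tested genes, log2(FPKM + 1) correlated between libraries with Pearson r of 0.9581 to 0.9844 within groups (6 pairs) and 0.9464 to 0.9879 between them (9 pairs), values given as a description because genes of 1 library are not independent.

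**Figure D1:**
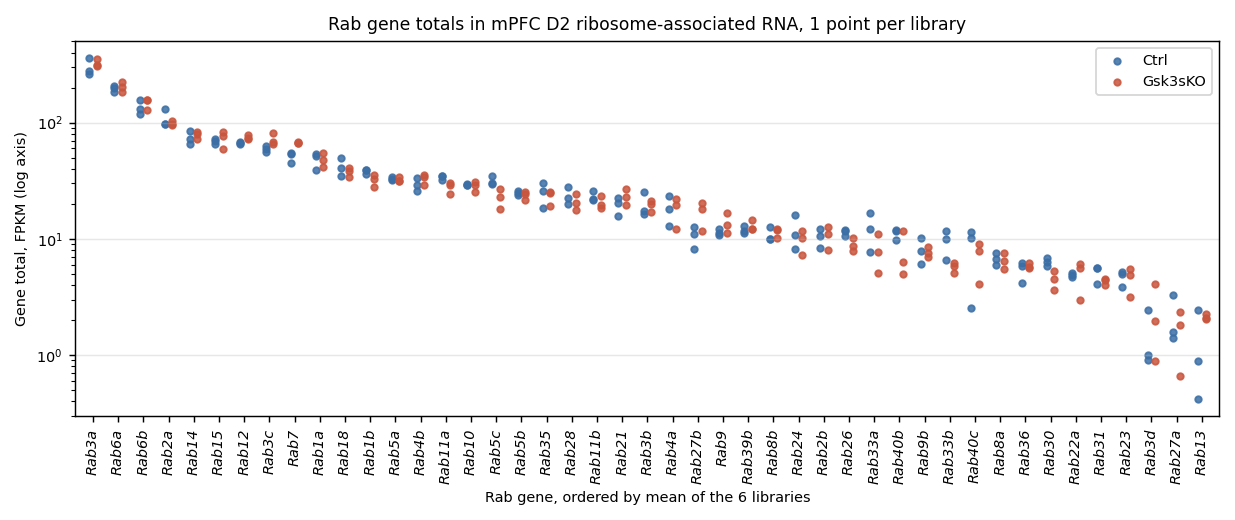
Gene totals of the 45 tested Rab genes (FPKM, log axis), 1 point per library, Ctrl in blue and Gsk3sKO in red, ordered by the mean of all 6 libraries. Means run from 312 FPKM for Rab3a to 1.69 FPKM for Rab13, and at most genes the points of both groups lie among each other.

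Totals of 45 Rab genes passed the filter of a mean of at least 1 FPKM and were tested with limma on log2(FPKM + 1) within a fit to all genes. Rab7 and Rab27b were higher and Rab5c and Rab33b lower in Gsk3sKO at an unadjusted p under 0.05. These 4 are 8.89% of the tested members, against 6.56% of all 12874 tested genes. Among all genes 1.36% were called higher and 5.2% lower. No Rab total passed after Benjamini-Hochberg adjustment over all genes (limma, smallest adjusted p = 0.688), a level that 0.0466% of all genes reached. An ordinary linear model likewise called 0 of the 45 after adjustment and 5 before it. The share of all genes called by that model was not taken, so its 5 cannot be set against a general rate. Between the groups, 9 of the 45 totals did not overlap (20%, against 12% of all genes): Rab7, Rab3c and Rab12 higher, and Rab1b, Rab5c, Rab11a, Rab26, Rab30 and Rab33b lower in Gsk3sKO. With 3 libraries against 3, an exact permutation test of a single gene cannot give a p below 0.1.

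Most Rab genes differed little. The median log2 fold change was -0.04 over the 45 totals and -0.06 over all genes tested, and the median size of the difference was 0.13 and 0.19. In 35 of the 45 the log2 fold change lay within 0.3 of 0, and in 37 the 95% interval lay within 1 of 0. The extremes were -0.60 for Rab33b and 0.61 for Rab27b. Fold changes here are on the log2(FPKM + 1) scale, which understates those of low genes. Because the RNA is a bulk sample, fewer cells of a type and less RNA per cell cannot be told apart.

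**Figure D2:**
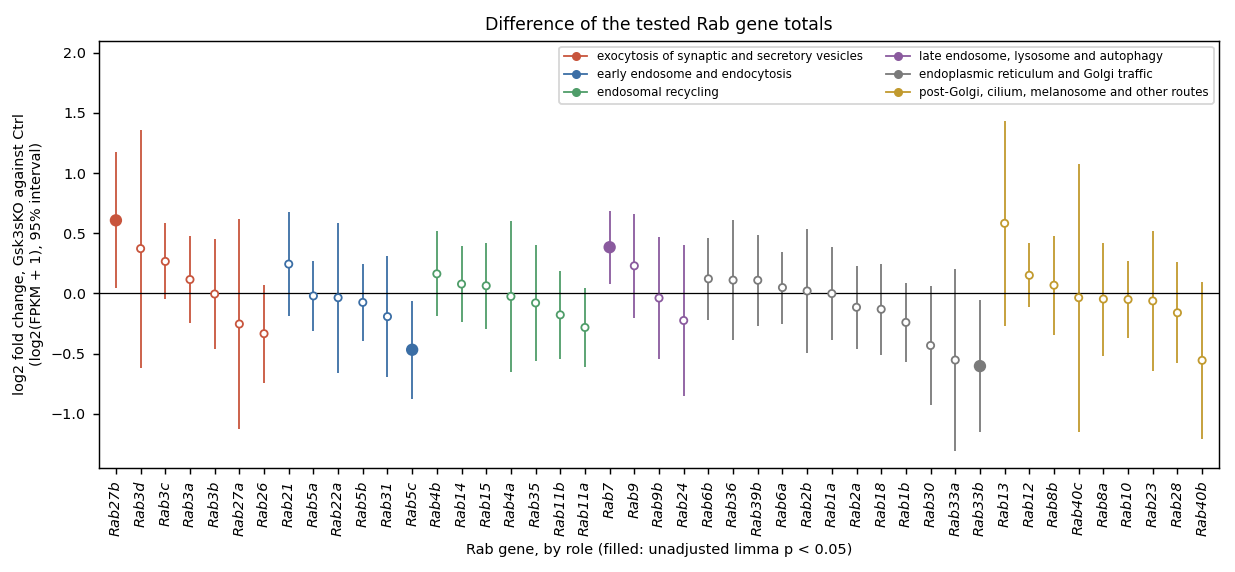
Log2 fold change of each tested Rab gene total (Gsk3sKO against Ctrl, on log2(FPKM + 1)) with its 95% interval, coloured by role and sorted within roles, filled where the unadjusted limma p is under 0.05. The 4 filled genes are Rab27b and Rab7 above 0 and Rab5c and Rab33b below 0, and the intervals of the other 41 include 0.

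The Rabs of exocytosis were led by Rab3a, the main Rab of synaptic vesicles, at 264, 277 and 362 FPKM in Ctrl and 313, 350 and 308 in Gsk3sKO (log2 fold change 0.12, 95% interval -0.24 to 0.48). Rab3c, a second synaptic vesicle Rab, was 55.7, 63.1 and 59.1 FPKM in Ctrl and 68.7, 65.0 and 81.7 in Gsk3sKO. Its groups did not overlap, but the difference did not pass the test (log2 fold change 0.27, 95% interval -0.05 to 0.58). It did pass once libraries were rescaled to a common median ratio (log2 fold change 0.33). Rab3b was 17.5, 25.4 and 16.2 against 21.4, 16.9 and 19.8 FPKM, and Rab3d, a Rab of large secretory granules, 0.996, 0.900 and 2.45 against 0.887, 1.97 and 4.06. Both overlapped, and the Rab3b difference (log2 fold change -0.00) took the other sign after rescaling (0.06).

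Rab27b, which acts with Rab3 proteins in docking of vesicles, was 8.12, 11.02 and 12.6 FPKM in Ctrl and 11.8, 20.3 and 18.3 in Gsk3sKO. It rose by 0.61 on the log2 scale (SE 0.25, 95% interval 0.04 to 1.17, limma adjusted p = 0.750), with Gsk3sKO replicate 1 inside the Ctrl range and the other two libraries above it. The call was lost when Ctrl replicate 1 (log2 fold change 0.45), Ctrl replicate 2 (0.65), Gsk3sKO replicate 2 (0.46) or Gsk3sKO replicate 3 (0.53) was left out, without a filter, and in the ordinary linear model. None of its 3 tested transcripts was called. Over the 8 exocytosis genes, 7 were tested and 1 was called, Rab27b, against 6.56% of all genes called either way. The summed level was 361, 391 and 466 FPKM in Ctrl against 428, 464 and 442 in Gsk3sKO, which overlap.

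Rab26, whose first exons are printed above, had a total of 10.6, 12.04 and 11.6 FPKM in Ctrl and 10.1, 8.69 and 7.83 in Gsk3sKO (log2 fold change -0.33, 95% interval -0.74 to 0.07), lower in all Gsk3sKO libraries without passing the test. It did pass without a filter on low values and in the ordinary linear model. Its transcripts are described because ENSMUST00000176533 was called. That transcript was at 3.18, 5.66 and 5.98 FPKM in Ctrl and was listed at 0 in all 3 Gsk3sKO libraries (limma adjusted p = 0.207). It met the filter of a mean of at least 1 FPKM through its Ctrl values alone, so its call is given as a description. At the inferred depth the Ctrl values stand for about 139, 174 and 135 reads. These are reads assigned over its whole length of 965 bases, of which 775 are shared with ENSMUST00000035797 and 190 are not. ENSMUST00000035797, with the short start, was at 6.45, 2.69 and 5.60 FPKM in Ctrl and 9.56, 8.59 and 7.36 in Gsk3sKO (log2 fold change 0.74, SE 0.33, not called). As a share of the gene, ENSMUST00000176533 made up 30.1, 47.0 and 51.3% in Ctrl and 0% in Gsk3sKO, and ENSMUST00000035797 60.9, 22.3 and 48.1% against 94.3, 98.8 and 94.0%. The shares restate the called difference and were not tested, and a transcript listed at 0 can be a failed estimate.

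Among the Rabs of early endosomes, Rab5c, which drives fusion of early endosomes alongside Rab5a and Rab5b, was 34.7, 29.7 and 30.2 FPKM in Ctrl and 27.1, 18.0 and 23.2 in Gsk3sKO. It fell by 0.47 on the log2 scale (SE 0.18, 95% interval -0.88 to -0.06, limma adjusted p = 0.732), with all Gsk3sKO values under the lowest Ctrl value. One transcript, ENSMUST00000107364, carried 99.98 ± 0.0294% of the total in Ctrl and 98.3 ± 1.81% in Gsk3sKO, and it too was called (log2 fold change -0.49, SE 0.18). The call was lost without Gsk3sKO replicate 2 (log2 fold change -0.32), without any 1 of the Ctrl libraries (-0.40, -0.51 and -0.50 without replicates 1, 2 and 3), after rescaling (-0.41) and in the ordinary linear model. The close relatives Rab5a (log2 fold change -0.02) and Rab5b (-0.07) did not pass. In all, 6 of 8 early endosome genes were tested, 1 was called (against 6.56% of all genes called either way), and the median log2 fold change was -0.06.

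Rab7, the central Rab of late endosomes, lysosomes and autophagosome fusion, gave the most stable difference of the family under the alternatives run. Its total was 45.0, 54.0 and 55.1 FPKM in Ctrl and 67.0, 66.5 and 67.8 in Gsk3sKO, or 51.4 ± 5.54 against 67.1 ± 0.660 (SD, n = 3 each). All Gsk3sKO libraries lay above all Ctrl libraries, and close to each other. The rise was 0.38 on the log2 scale (SE 0.13, 95% interval 0.08 to 0.69, limma adjusted p = 0.688), equal to 1.31-fold. The unadjusted call held in each of the 12 alternatives run, with log2 fold changes from 0.29, without Ctrl replicate 1, to 0.45, after rescaling. It came closest to the threshold without Ctrl replicate 1.

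The rise sat in the estimate of 1 transcript of Rab7, while another was listed at 0, which can be a failed estimate. ENSMUST00000113600 was at 31.8, 47.6 and 44.0 FPKM in Ctrl and 62.7, 66.4 and 67.6 in Gsk3sKO (log2 fold change 0.68, SE 0.18, limma adjusted p = 0.740). ENSMUST00000113598 was at 8.72, 4.86 and 7.77 FPKM in Ctrl, about 800, 315 and 371 reads at the inferred depth, and was listed at 0 in all 3 Gsk3sKO libraries (called, limma adjusted p = 0.152, the smallest of the 71 tested Rab transcripts). ENSMUST00000113598 met the filter of a mean of at least 1 FPKM through its Ctrl values alone, so its call is given as a description. The share of ENSMUST00000113600 in the gene was 70.6, 88.1 and 79.7% in Ctrl and 93.6, 99.7 and 99.7% in Gsk3sKO, which restates the called difference and was not tested.

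Both Rab7 transcripts hold the same 621-base coding sequence, so they encode the same protein. They share 1950 bases and differ in a first, noncoding exon on the minus strand, at chr6:88045073-88045270 for ENSMUST00000113600 and chr6:88044937-88045017 for ENSMUST00000113598 (GRCm38). Their 3′ ends also differ, at chr6:87999106 and chr6:87999117. Within this pair the estimates are told apart by the 209 and 81 bases found in only one of them. Other listed Rab7 transcripts, such as ENSMUST00000113596, also start within the first exon of ENSMUST00000113600, so those bases do not mark it alone. Of the stretches of 50 bases in the leading Rab7 transcript, 16.2% also occur in the pseudogene Rab7-ps1 or the antisense gene Gm5577. The Gm5577 total did not exceed 0.593 FPKM in any library, and no level of Rab7-ps1 is given here.

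The other late endosome genes did not pass: Rab9 (log2 fold change 0.23), Rab9b (-0.04) and Rab24 (-0.22), of which the last shares 43.5% of its stretches with Prelid1 on the opposite strand. Summed over the 6 genes of this role, 4 of them tested and Rab7 the 1 called (against 6.56% of all genes), the level was 78.5, 85.1 and 85.6 FPKM in Ctrl against 98.9, 96.9 and 100.1 in Gsk3sKO. Rab7 makes up most of that sum.

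**Figure D3:**
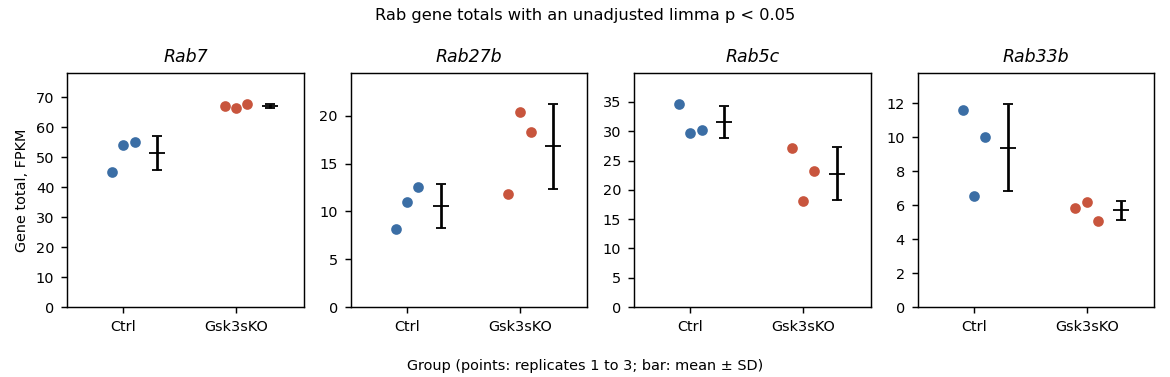
Gene totals (FPKM, axis from 0) of Rab7, Rab27b, Rab5c and Rab33b, the Rab genes with an unadjusted limma p under 0.05, with 1 point per library and the mean ± SD (n = 3) beside them. Rab7 in Gsk3sKO lies between 66.5 and 67.8, above all Ctrl libraries, Rab5c and Rab33b lie below theirs, and Rab27b overlaps in Gsk3sKO replicate 1.

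No recycling Rab was called in limma. Of 8 genes 7 were tested and 0 passed, against 6.56% of all genes, and their sum was 255, 271 and 292 FPKM in Ctrl and 299, 273 and 249 in Gsk3sKO. Of these 7 log2 fold changes 3 were above 0 and 4 below it, from -0.28 for Rab11a to 0.16 for Rab4b, whose leading transcript shares 80.3% of its stretches with the readthrough gene Gm21983. Rab14, of endosomes and Golgi, was 66.2, 72.7 and 84.2 against 83.2, 72.2 and 79.6 FPKM (log2 fold change 0.08), and Rab15, an endosomal Rab rich in neurons, 72.3, 65.9 and 68.9 against 82.8, 77.0 and 58.9 (0.06). Rab11a, the recycling endosome Rab, was lower in all Gsk3sKO libraries (33.9 ± 1.605 against 27.7 ± 2.93 FPKM, SD, n = 3) without passing (log2 fold change -0.28, 95% interval -0.61 to 0.04).

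Rab11b, a close relative of Rab11a that is abundant in brain, had a total that overlapped, at 21.5, 25.9 and 21.9 FPKM in Ctrl and 23.3, 18.3 and 19.5 in Gsk3sKO (log2 fold change -0.18, 95% interval -0.55 to 0.19). Its noncoding transcript ENSMUST00000174744, annotated as a processed transcript, fell from 5.30, 5.63 and 3.06 FPKM to 0.850, 1.004 and 1.74 (log2 fold change -1.35, SE 0.37, limma adjusted p = 0.759). All its 503 bases also lie in the main coding transcript ENSMUST00000057373, which was 13.3, 16.03 and 16.7 against 15.9, 12.2 and 15.4 FPKM (log2 fold change -0.08). The other tested transcripts of the gene, ENSMUST00000173860 (0.78) and ENSMUST00000173987 (0.49), did not pass.

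The Rabs of the endoplasmic reticulum and Golgi were the largest group by level, at 36.9% of the family. Rab6a was 198, 207 and 185 FPKM in Ctrl and 185, 201 and 226 in Gsk3sKO, and Rab6b, its neuronal relative, 119, 132 and 155 against 155, 156 and 129. Rab2a, which acts between the endoplasmic reticulum and the Golgi, was 131, 97.5 and 97.6 against 96.3, 97.7 and 104. All of these overlapped, with log2 fold changes of 0.05, 0.12 and -0.11. The summed level of the 17 genes was 633, 623 and 628 FPKM in Ctrl and 623, 618 and 611 in Gsk3sKO, a ratio of 0.983.

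In this group the 1 gene called of 12 tested, against 6.56% of all genes, was Rab33b, a Golgi Rab that binds the autophagy protein Atg16l1. It was 11.6, 6.57 and 9.996 FPKM in Ctrl and 5.87, 6.16 and 5.09 in Gsk3sKO, and fell by 0.60 on the log2 scale (SE 0.24, 95% interval -1.15 to -0.06, limma adjusted p = 0.741). The groups did not overlap, although Ctrl replicate 2 lay only just above the highest Gsk3sKO library. The call was lost when any library other than Ctrl replicate 2 was left out (log2 fold changes from -0.65 to -0.45), after rescaling (-0.55), and with unchanged value in the ordinary linear model and with a replicate block. The leading Rab33b transcript, ENSMUST00000195715, is a noncoding processed transcript, at 5.54, 2.20 and 6.39 FPKM in Ctrl and 0.0468, 2.55 and 4.85 in Gsk3sKO. ENSMUST00000054387, with the longest coding sequence of the 3 tested, was 1.02, 0.781 and 1.11 against 3.29, 2.64 and 0.238 FPKM (log2 fold change 0.45, SE 0.57). The shorter coding transcript ENSMUST00000192172 was 5.06, 3.585 and 2.50 FPKM in Ctrl and 2.53, 0.979 and 0 in Gsk3sKO. All 3 overlapped between the groups. The leading transcript shares 16.3% of its stretches with Gm38160 on the opposite strand, which did not exceed 0.0341 FPKM. None of the 3 tested Rab33b transcripts was called.

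The estimated use of the Rab6a exons printed above fell into 2 patterns that crossed the groups, a feature picked out after its values were seen. ENSMUST00000032946 was at 118, 185 and 109 FPKM in Ctrl and 112, 179 and 203 in Gsk3sKO, and ENSMUST00000098252 at 77.1, 21.3 and 76.0 against 73.3, 20.8 and 20.02. The share of ENSMUST00000032946 was therefore 59.5, 89.5 and 58.9% in Ctrl and 60.2, 89.1 and 89.9% in Gsk3sKO, with the lower level in 3 libraries and the higher in 3, and both levels found in both groups. Neither transcript passed (log2 fold changes 0.25, SE 0.30, and -0.66, SE 0.68). Of the stretches of 50 bases in ENSMUST00000032946, the leading transcript, 22.3% also occur in Mrpl48, on the opposite strand, or in Gm13082.

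Of the Rabs of post-Golgi, ciliary and other routes, 9 of 12 genes were tested and 0 called, against 6.56% of all genes, and their sums were 163 ± 3.60 FPKM in Ctrl and 163 ± 12.05 in Gsk3sKO (SD, n = 3). Rab12, which acts in traffic of recycling cargo to lysosomes and is a substrate of the kinase Lrrk2, was the most abundant of them, at 67.4, 68.1 and 65.6 FPKM in Ctrl and 77.7, 72.7 and 73.2 in Gsk3sKO. It was higher in all Gsk3sKO libraries, by 0.15 on the log2 scale (95% interval -0.12 to 0.42), without passing the moderated test, and it passed in the ordinary linear model.

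The Rab12 total divided between a pair of transcripts on the minus strand of chromosome 17 that differ by 59 bases at the 5′ end, which give the longer one 144 more coding bases. All 2010 bases of the shorter one also lie in the longer, so the estimates are told apart only by those 59 bases. The longer, ENSMUST00000070538, was at 0.473, 1.45 and 40.3 FPKM in Ctrl and 43.4, 41.1 and 42.7 in Gsk3sKO, and the shorter, ENSMUST00000167962, at 66.3, 64.5 and 25.0 against 34.2, 31.2 and 29.7. Ctrl replicate 3 thus had the estimated division of the Gsk3sKO libraries, and Ctrl replicates 1 and 2 were estimated to hold almost none of the longer form. Values near 0 can be failed estimates. The longer form was called (log2 fold change 3.03, SE 1.20, limma adjusted p = 0.842), and without Ctrl replicate 3 the call held at 4.51. The call was lost without Ctrl replicate 1 (2.11) or replicate 2 (2.48), without any 1 of the Gsk3sKO libraries (3.02 to 3.05) and in the ordinary linear model. Its share of the gene, 0.702, 2.13 and 61.4% in Ctrl and 55.8, 56.5 and 58.3% in Gsk3sKO, overlapped.

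**Figure D4:**
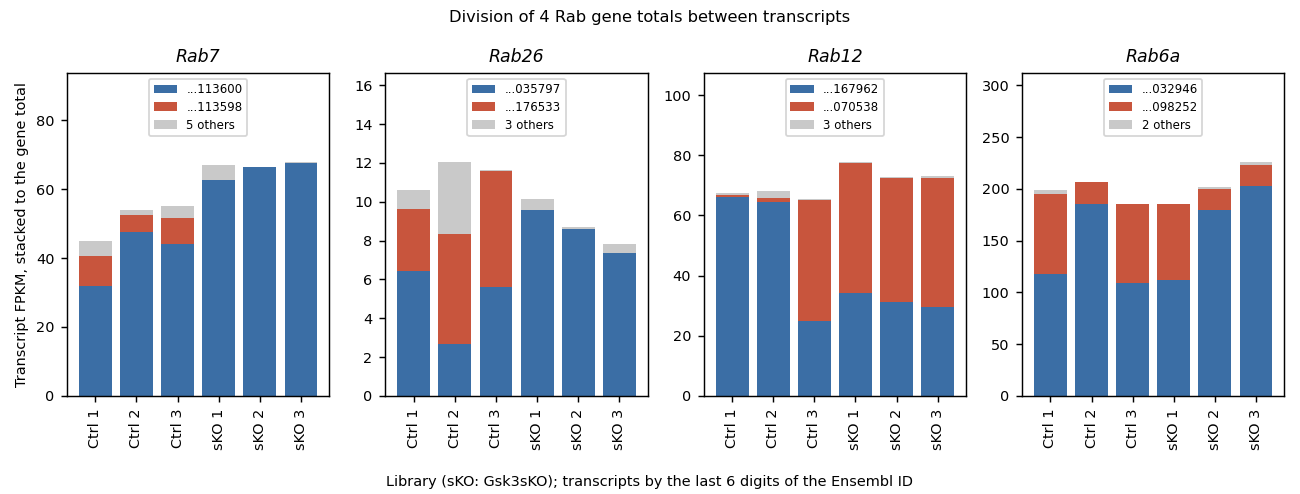
FPKM of each library divided between the 2 leading transcripts (blue and red, named by the end of their Ensembl identifier) and the remaining transcripts (grey) of Rab7, Rab26, Rab12 and Rab6a, stacked to the gene total. The red transcripts of Rab7 and Rab26 are at 0 in the Gsk3sKO bars, that of Rab12 is near 0 in Ctrl replicates 1 and 2 only, and that of Rab6a is high in 3 libraries from both groups.

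Across the family, 188 of 226 transcripts were above 0 somewhere and 38 were listed at 0 throughout. Transcripts numbered from 1 for 19 of the genes up to 11 for Rab14, and 17 genes had 2 or more tested transcripts. Of the 71 tested, 6 were called (8.45%, against 5.56% of all 21584 transcripts tested): ENSMUST00000113600 and ENSMUST00000070538 higher, against 1.81% of all, and the other 4, of Rab7, Rab26, Rab11b and Rab5c, lower, against 3.75%. None passed adjustment, as for 0.0% of all transcripts. An ordinary linear model called 5 of the 71 before and 0 after adjustment, and its share over all transcripts was not taken. The groups did not overlap for 11 of the 71 (15.5%, against 11.2% of all). Both counts include ENSMUST00000113598 of Rab7 and ENSMUST00000176533 of Rab26, which met the filter through their Ctrl values alone. The median size of the log2 fold change was 0.41 over Rab transcripts and 0.13 over Rab totals, beside 0.35 and 0.19 over all transcripts and all totals.

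Another 14 Rab genes had a mean total below 1 FPKM and were not tested. Rab19, Rab20, Rab25 and Rab44 were listed at 0 in all 6 libraries. Rab17, Rab7b, Rab38, Rab32, Rab37, Rab42, Rab29 and Rab43 did not exceed 1.604 FPKM in any library and overlapped between groups. Rab34, a Golgi and ciliary Rab, was 0.446, 1.39 and 2.098 FPKM in Ctrl and 0.414, 0.175 and 0 in Gsk3sKO, and Rab39 was 0.532, 0.233 and 0.401 against 0.0570, 0 and 0.0505. Both were lower in all Gsk3sKO libraries, at values near the floor, and Rab34 was parted only by 0.446 against 0.414 FPKM. The groups did not overlap for 12% of all tested genes. That share was not taken for genes below the filter. The set holds Rab25 and Rab17, which are known from epithelia, and Rab38 and Rab32, known from melanosomes.

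The proteins that regulate or bind Rabs were followed by lists of 114 genes, all found in the table under 115 gene identifiers, of which 98 totals were tested. Of these, 2 were called (2.04%, against 6.56% of all genes), both lower, and 0 passed adjustment. The median log2 fold change was -0.03. Among the 8 chaperone and prenylation genes, all tested, Gdi2, a GDP dissociation inhibitor, was 88.4, 108 and 105 FPKM in Ctrl and 108, 111 and 97.1 in Gsk3sKO, which overlap (log2 fold change 0.07, 95% interval -0.24 to 0.38). Rabac1, the prenylated Rab acceptor that helps to release Rabs from such inhibitors, was 27.9, 28.6 and 22.2 FPKM in Ctrl and 17.7, 19.7 and 16.1 in Gsk3sKO. It fell by 0.53 on the log2 scale (SE 0.16, 95% interval -0.91 to -0.15, limma adjusted p = 0.671), and the groups did not overlap. This call, 1 of the 8 tested (12.5%, against 6.56% of all genes), was lost without Ctrl replicate 2 (-0.46).

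Of 30 exchange factors 24 were tested and 0 called in limma, against 6.56% of all genes. Madd, the exchange factor of Rab3 and Rab27 proteins, was 52.3, 52.3 and 62.9 FPKM in Ctrl and 59.99, 63.4 and 57.7 in Gsk3sKO (log2 fold change 0.11). Of the 38 GTPase-activating protein genes, 35 totals were tested and 1 was called (2.86%, against 6.56% of all genes), an entry of Sgsm3. Sgsm3 is listed under 2 gene identifiers: ENSMUSG00000103565, with 1 transcript, was 3.25, 14.3 and 1.43 FPKM in Ctrl and 1.64, 0 and 0 in Gsk3sKO (log2 fold change -1.97, SE 0.68, limma adjusted p = 0.688), and ENSMUSG00000042303 was 9.66, 3.42 and 14.7 against 15.5, 18.7 and 13.7 (log2 fold change 0.90, 95% interval -0.05 to 1.85). Summed over both, Sgsm3 was 15.6 ± 2.44 against 16.5 ± 2.54 FPKM (SD, n = 3, exact permutation p = 0.6). The call of the first entry was lost without Ctrl replicate 2 (-1.22), without Gsk3sKO replicate 2 or 3 (-1.73 each) and in the ordinary linear model. That entry met the filter on low values through its Ctrl libraries alone.

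Among 35 effectors 29 were tested and 0 called in limma, against 6.56% of all genes, with 15 log2 fold changes above 0 and 14 below it. Rph3a, rabphilin, which binds Rab3 and Rab27 on vesicles, was 120, 110 and 108 FPKM in Ctrl and 124, 129 and 157 in Gsk3sKO. It did not overlap and did not pass (log2 fold change 0.27, 95% interval -0.05 to 0.58). Rims1, the active zone effector of Rab3, was 67.8, 70.0 and 85.7 against 69.9, 88.8 and 89.2 (log2 fold change 0.15). Of 3 genes that add or remove phosphate on Rabs 2 were tested and 0 called, against the same 6.56%.

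**Figure D5:**
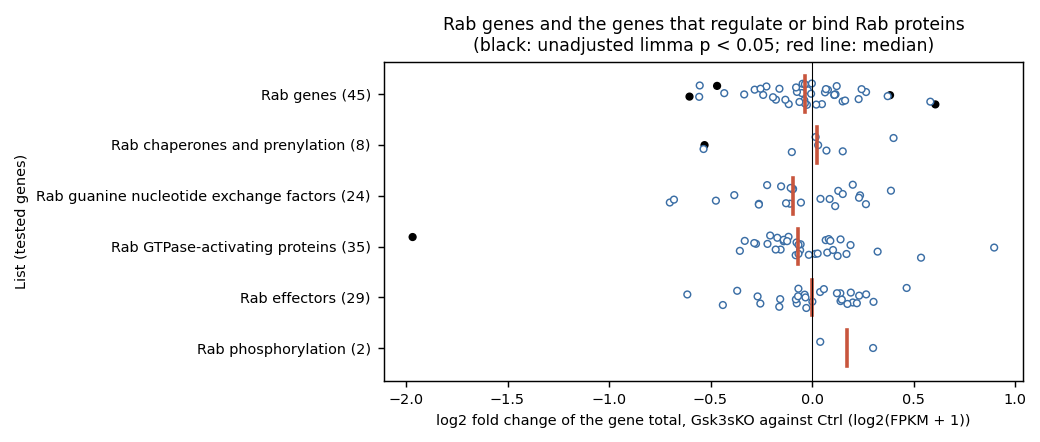
Log2 fold change of each tested gene total (Gsk3sKO against Ctrl, on log2(FPKM + 1)) for the Rab genes and for 5 lists of their regulators and effectors, black where the unadjusted limma p is under 0.05, with the median of each list as a red line. The medians lie between -0.09 and 0.17, and the 2 black points outside the Rab genes are Rabac1 and an entry of Sgsm3.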

How the data were processed

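Ribosome-associated RNA of 3 Ctrl and 3 Gsk3sKO libraries was prepared with a stranded total RNA kit. The authors mapped reads and assembled transcripts with HISAT2 2.1.0, SAMtools 1.9 and StringTie 1.3.4d on GRCm38, per the submitters' processing notes, and deposited FPKM per transcript, which is normalised for transcript length and library depth. The sources used here give no settings, annotation release or strand setting for counting. The table also holds fold changes, p-values and q-values of the authors' own comparison, which were not used.

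FPKM was summed by gene identifier. Features with a mean of at least 1 FPKM were tested on log2(FPKM + 1) with limma 3.58.1 (lmFit, eBayes with trend, R 4.3.3), fitted to all features, with Benjamini-Hochberg adjustment over all of them. A feature was called at an unadjusted p under 0.05. Single values were compared by 2-sided exact permutation tests. The deposited FPKM holds no counts, so depth was inferred from the spacing of low values and is approximate. Coordinates and sequence are from GENCODE M21 (GRCm38), which matched 114237 transcripts and left 983, none of them Rab transcripts, unmatched. Shared sequence was measured as stretches of 50 bases of a leading transcript that occur in other genes.

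Named were members with a called total or transcript, the 8 most abundant, the Rab3 genes and Rab27b, those below a mean of 1 FPKM, called regulators, and Gdi2, Madd, Rims1 and Rph3a. Another gene that the rule names is not reported here. Other Rab genes given with values were chosen after these were seen. The members and lists were chosen with earlier results of these data known. Alternatives were a pseudocount of 0.1, no filter, a mean of at least 5 FPKM, rescaling, no moderation, a replicate block and leaving out each library. The scripts were tested on simulated data.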

Additional observations from a re-analysis of the deposited data

How the results depend on the processing

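The share of all features called was taken for the main fit only, so counts under the alternatives are given with the number tested. The number of Rab totals called (4 of 45) was 4 of 45 with a pseudocount of 0.1. It was 4 of 39 at a mean of at least 5 FPKM, 5 of 45 without moderation and 7 of 55 without a filter on low values. When 1 library was left out it was 1 to 5 of 45. It was 1 without Gsk3sKO replicate 2 and 2 without Ctrl replicate 1 or Ctrl replicate 2. Rescaling libraries to a common median ratio gave 3 higher and 0 lower in place of 2 and 2, and moved the median of the Rab totals from -0.04 to 0.03 and that of all genes from -0.06 to -0.00. Called Rab transcripts (6 of 71) became 3 of 42 at a mean of at least 5 FPKM. With 1 library left out they were 5 to 10, with 10 of 72 reached without Gsk3sKO replicate 1. Rescaling gave 4 higher and 3 lower of 71, in place of 2 and 4. Called regulators and effectors (2 of 98) became 5 of 114 without a filter, 1 of 75 at a mean of at least 5 FPKM and 4 of 98 without moderation. With 1 library left out they were 0 of 98 without Ctrl replicate 2 and 1 of 99 without Gsk3sKO replicate 3. They were 5 of 98 without Ctrl replicate 3 and 6 of 98 without Gsk3sKO replicate 1.

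Same-numbered libraries did not deviate together (correlations of -0.027, -0.011 and -0.081), so the numbers were not taken as pairs. With a replicate block 3 of 45 Rab totals, 9 of 71 Rab transcripts and 2 of 98 regulators were called. Without Ctrl replicate 1, which had the lowest Drd2, 7 of 73 Rab transcripts were called.

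Signs turned for members near 0. With 1 library left out, log2 fold changes ran from -0.026 to 0.116 for Rab6a (negative without Gsk3sKO replicate 3), -0.186 to 0.026 for Rab2a (positive without Ctrl replicate 1), -0.001 to 0.17 for Rab14 (negative without Ctrl replicate 1), -0.034 to 0.208 for Rab15 (negative without Gsk3sKO replicate 1), -0.125 to 0.183 for Rab3b (positive without Ctrl replicate 2, and 0.085 without Gsk3sKO replicate 2), -0.018 to 0.128 for Gdi2 (negative without Ctrl replicate 1) and -0.174 to 0.033 for Rab11b ENSMUST00000057373 (positive without Gsk3sKO replicate 2). Rab3b was 0.058 after rescaling. The cause was not tested. FPKM without counts gives no interval for counting error, and zeros in transcripts can be failed estimates.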
